A study of Arabidopsis thaliana with 6 samples.

Results

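The 45 genes described here belong to the SAUR (small auxin up RNA) family of Arabidopsis thaliana. They were chosen by locus code, and all 45 codes were found among the 27827 probe sets of the table. RefSeq's gene list for TAIR10.1 gives each of the 45 a SAUR name as its symbol or as a synonym. By their codes, 30 lie in 6 tandem clusters, whose members follow each other on a chromosome with locus numbers at most 50 apart. The other 15, called lone genes, have no other of the 45 so near. Of these, SAUR53 and SAUR76 lie within that distance of SAUR54 and SAUR70, SAUR genes outside the 45. A further 33 SAUR genes listed in that gene list and not among the 45 are given at the end for comparison.

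Expression was measured on 6 arrays, 3 of the mutant naa20-1 and 3 of its wild type, the accession Col-0. According to the series' design text, naa20-1 is depleted of the subunit that carries the catalytic activity of NatB, which attaches acetyl groups to the N-termini of newly made proteins. All 6 samples were total RNA of whole seedlings aged 17 days, grown untreated on MS medium of 1x strength with 8.5 h of light a day at 100 µE. How the allele acts, and whether seedlings were pooled, is not given in the sources at hand. The labels do not say that the samples of a genotype came from separate cultures, so p-values measure only the spread among these 6 samples, part of which may be technical.

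SAUR genes are short, mostly intronless genes specific to plants, with transcripts and proteins that turn over fast. They were first found in soybean as transcripts that auxin raises within minutes, and many Arabidopsis members also respond to brassinosteroid, light and temperature. SAUR19 of Arabidopsis binds clade D phosphatases of the PP2C type and inhibits them, which keeps the plasma membrane H+-ATPase phosphorylated and active, so that the cell wall is acidified and the cell expands.

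Values are log2 expression after RMA, errors of means are SD over 3 arrays per group, and a difference is the naa20-1 mean less the Col-0 mean, given with limma's moderated standard error (SE). The limma p-values were adjusted by the Benjamini-Hochberg method across all 27241 probe sets matched to the gene list, and genes with adjusted values under 0.05 count as called. Pearson correlations between arrays across probe sets were 0.993 to 0.995 within a genotype and 0.990 to 0.993 between genotypes. NAA20 (AT1G03150), the targeted gene, stood at 8.10, 7.60 and 7.36 in naa20-1 and at 8.79, 8.75 and 8.72 in Col-0, a difference of -1.07 (SE 0.18, adjusted p = 0.0407). The NAA20 call remained without naa20-1 replicate 1 (adjusted p = 0.0181) and was lost when any other single array was left out (adjusted p from 0.0770 to 0.135). Detection calls are missing from the table, and values under its 25th percentile, 3.72, may be background.

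In naa20-1, 5 of the 45 SAUR genes were lower, 0 were higher and 40 did not pass the test. Over all tested genes 0.767% were called lower and 0.382% higher, 1.15% in all. The 5 that fell were SAUR21 and SAUR24 of the chromosome 5 cluster, SAUR28 of the chromosome 3 cluster, and SAUR63 and AT1G29510 of the chromosome 1 cluster. The falls ran from 1.66-fold (SAUR24) to 2.34-fold (SAUR28). All 5 are tandem members, and none of the 15 lone genes was called. Of the lone genes, 4 had an unadjusted p under 0.05 in limma (14.2% of all tested genes), 2 with a negative and 2 with a positive difference.

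The differences of the members leaned below 0 beyond the called genes. The difference was negative in 34 of the 45 (48.8% of all tested genes), and the median over the members was -0.29, against 0.01 over all tested genes. With the dimmest 40% of genes left out, 16 members remained, with a median of -0.66. An unadjusted p under 0.05 with a negative difference was found for 22 members (7.19% of all tested genes), and with a positive difference for 3 (7.02%). All 3 naa20-1 values lay below all 3 Col-0 values in 16 members (10.5%), with differences from -1.23 to -0.24, and above them in 3 members (10.6%). The members were chosen with earlier results of these data known and share sequence, so these counts are a description and carry no test.

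The count of called members moved with the arrays used. It was 4 without naa20-1 replicate 1 and 3 without naa20-1 replicate 2 or naa20-1 replicate 3. It was 2 without Col-0 replicate 1 or Col-0 replicate 2, and 1 without Col-0 replicate 3. Calls over the whole table also became fewer. With 1 array left out, 0.187% to 0.492% of all tested genes were called lower, against 0.767% with all arrays. When eBayes was run with a variance trend and robust fit, 11 members were lower and 0 were higher, against 1.78% of all tested genes called lower. The 6 added were the lone gene SAUR9 and the tandem members SAUR13, SAUR14, SAUR15, SAUR16 and SAUR64.

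**Figure D1:**
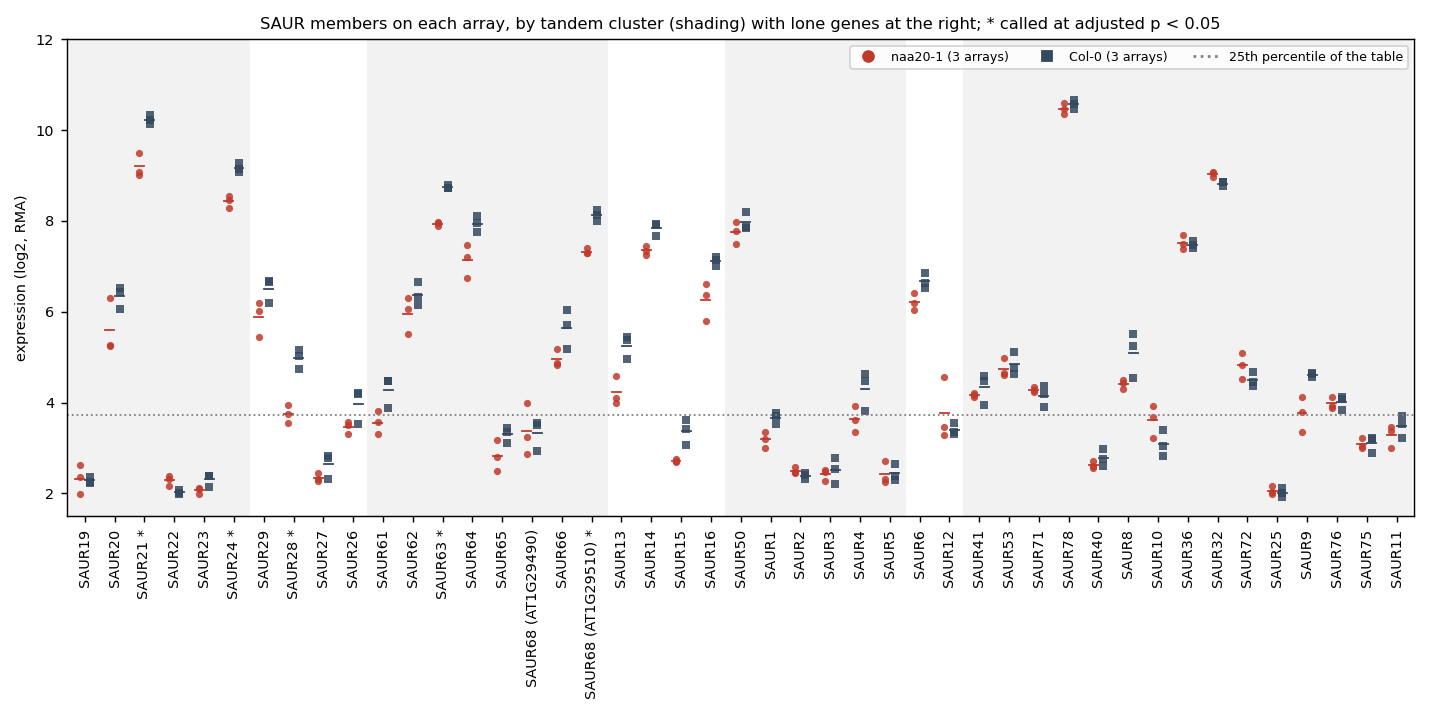
Log2 expression (vertical axis) of the 45 SAUR genes on each array, with naa20-1 arrays as red circles left of the Col-0 arrays as dark squares, short lines at the group means, and the 25th percentile of the table (3.72) as a dotted line. Shading separates the 6 tandem clusters and, at the right, the 15 lone genes, and asterisks mark the 5 called genes, in each of which the naa20-1 points lie below all Col-0 points.

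The chromosome 5 cluster holds SAUR19 to SAUR24, a subfamily of closely similar genes whose Arabidopsis members promote the expansion of hypocotyl and leaf cells. SAUR21 and SAUR24 fell, and the other 4 did not pass the test. SAUR21 (AT5G18030) stood at 9.09, 9.51 and 9.01 in naa20-1, against 10.33, 10.22 and 10.13 in Col-0. SAUR24 (AT5G18080) stood at 8.30, 8.55 and 8.46 in naa20-1, against 9.08, 9.15 and 9.29 in Col-0. In both genes every naa20-1 array was below every Col-0 array, by a gap wider than the spread inside either group. The difference of SAUR21 was -1.02 (SE 0.14, adjusted p = 0.0235), a fall of 2.03-fold. That of SAUR24 was -0.73 (SE 0.10, adjusted p = 0.0252), a fall of 1.66-fold. The SAUR21 call held without naa20-1 replicate 2 (adjusted p = 0.0187) and was lost without any other single array (0.0627 to 0.0937), and the SAUR24 call was lost whichever array was left out (0.0588 to 0.0979), while the differences stayed between -1.18 and -0.93 and between -0.79 and -0.66.

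SAUR20 (AT5G18020) gave 5.26, 6.29 and 5.26 in naa20-1 and 6.44, 6.06 and 6.52 in Col-0. Replicates 1 and 3 of naa20-1 were below all Col-0 arrays and replicate 2 was among them, and the difference of -0.73 (SE 0.28) did not pass the test (adjusted p = 0.301). Group means of SAUR19, SAUR22 and SAUR23 lay between 2.02 and 2.32, at the bottom of the table. Of these, SAUR22 was slightly higher on all naa20-1 arrays (2.28 ± 0.11 against 2.02 ± 0.04 in Col-0, adjusted p = 0.249), SAUR23 slightly lower on all (2.07 ± 0.07 against 2.31 ± 0.14, adjusted p = 0.335) and SAUR19 overlapped. Because the 6 genes are closely similar and the probe set definition is not given, it is uncertain which of them each probe set measured.

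The chromosome 3 cluster holds SAUR26 to SAUR29, a subfamily linked in Arabidopsis to growth responses to temperature. Here 1 gene fell, SAUR28, and the differences of all 4 were negative, from -1.23 to -0.29. SAUR28 (AT3G03830) stood at 3.94, 3.54 and 3.76 in naa20-1 and at 4.74, 5.15 and 5.03 in Col-0. It had the largest difference of the 45 genes, 2.34-fold lower (log2 -1.23, SE 0.14, adjusted p = 0.0136). The call was lost without Col-0 replicate 2 (adjusted p = 0.0534) or Col-0 replicate 3 (0.0686) and held without any other single array. The naa20-1 mean of 3.75 ± 0.20 was close to the 25th percentile of the table, so the size of this fall is uncertain.

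SAUR29 (AT3G03820) was at 6.20, 6.01 and 5.45 in naa20-1 and 6.20, 6.69 and 6.65 in Col-0. Its groups overlapped on the highest naa20-1 and the lowest Col-0 array, and its difference of -0.63 (SE 0.22) was not called (adjusted p = 0.248). SAUR26 (3.45 ± 0.14 in naa20-1, 3.98 ± 0.39 in Col-0) and SAUR27 (2.34 ± 0.09 in naa20-1, 2.64 ± 0.28 in Col-0) were dimmer and not called (adjusted p = 0.276 and 0.431).

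The chromosome 1 cluster is the largest, with 8 genes from AT1G29420 (SAUR61) to AT1G29510. SAUR63 promotes elongation of the hypocotyl and of floral organs in Arabidopsis. The gene list gives the name SAUR68 both to AT1G29510, which it also lists as SAUR67, and to AT1G29490, so these 2 are called by their codes. SAUR63 and AT1G29510 fell, and 7 of the 8 differences were negative. SAUR63 (AT1G29440) stood at 7.95, 7.89 and 7.98 in naa20-1, against 8.78, 8.74 and 8.73 in Col-0. AT1G29510 stood at 7.40, 7.29 and 7.29 in naa20-1, against 8.25, 8.002 and 8.14 in Col-0. In both genes the 3 arrays of each group lay close together and the groups were far apart, without overlap. The difference of SAUR63 was -0.81 (SE 0.08, adjusted p = 0.00749), a fall of 1.75-fold with the smallest p of the 45, and it remained called in each of the 12 alternatives, the 6 that left out an array included (adjusted p 0.0235 to 0.0485). AT1G29510 was also 1.75-fold lower (log2 -0.80, SE 0.10, adjusted p = 0.0149), and this call was lost without naa20-1 replicate 2 (0.0599), Col-0 replicate 1 (0.0601) or Col-0 replicate 3 (0.0710).

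Among the other 6 genes of the chromosome 1 cluster, SAUR64 (AT1G29450) had a difference as large as the called ones and a wider spread. It was at 7.48, 7.20 and 6.74 in naa20-1 and at 7.95, 7.76 and 8.11 in Col-0 (log2 -0.80, SE 0.19, adjusted p = 0.116). Its groups did not overlap, nor did those of SAUR61, at 3.57, 3.81 and 3.30 in naa20-1 and 4.47, 3.87 and 4.48 in Col-0 (log2 -0.71, SE 0.20, adjusted p = 0.165). SAUR66 (-0.69, SE 0.22), SAUR65 (-0.48, SE 0.18) and SAUR62 (-0.42, SE 0.22) overlapped between the groups and were not called (adjusted p = 0.210, 0.286 and 0.443). AT1G29490 ran the widest range in naa20-1, 3.99, 3.23 and 2.86, around 2.93, 3.54 and 3.51 in Col-0 (difference 0.03, SE 0.29).

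In the first chromosome 4 cluster, SAUR13 to SAUR16, 0 of 4 genes passed the test. In all 4 the naa20-1 arrays were entirely below the Col-0 arrays, an order found in 10.5% of all tested genes. SAUR15 is SAUR-AC1, long used as an early auxin response gene, and SAUR14 and SAUR16 are known in Arabidopsis as light-induced genes of cotyledons. SAUR13 (AT4G38825) was at 4.59, 4.10 and 3.99 in naa20-1 and 5.37, 5.44 and 4.95 in Col-0. SAUR14 (AT4G38840) was at 7.35, 7.45 and 7.26 in naa20-1 and 7.93, 7.92 and 7.67 in Col-0. The difference of SAUR13 was -1.03 (SE 0.19, adjusted p = 0.0608) and that of SAUR14 -0.49 (SE 0.11, adjusted p = 0.0925), so neither was called. Some alternative fits of all 6 arrays did call them, among them the variance trend and robust fit. Without naa20-1 replicate 1, SAUR13 was also called (log2 -1.21, adjusted p = 0.0476).

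SAUR15 (AT4G38850) gave 2.68, 2.72 and 2.75 in naa20-1 and 3.41, 3.06 and 3.62 in Col-0 (log2 -0.65, SE 0.14, adjusted p = 0.0969), with all 6 values in the range that may be background. SAUR16 (AT4G38860) gave 6.62, 6.38 and 5.81 in naa20-1 and 7.13, 6.998 and 7.22 in Col-0 (log2 -0.85, SE 0.20, adjusted p = 0.111). The median difference of the 4 genes was -0.75, the lowest of the 6 clusters. All 4 were called with the variance trend and robust fit (adjusted p = 0.0198, 0.0295, 0.0495 and 0.0367 for SAUR13, SAUR14, SAUR15 and SAUR16).

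The second chromosome 4 cluster holds SAUR50, known with SAUR14 and SAUR16 for light-induced cotyledon opening, and SAUR1 to SAUR5. None of its 6 genes was called, and 2 had an unadjusted p under 0.05 (14.2% of all tested genes), SAUR1 and SAUR4. SAUR1 (AT4G34770) was at 3.35, 3.01 and 3.20 in naa20-1 and 3.69, 3.78 and 3.52 in Col-0 (log2 -0.48, SE 0.12, adjusted p = 0.129). SAUR4 (AT4G34800) was at 3.62, 3.93 and 3.34 in naa20-1 and 3.81, 4.64 and 4.47 in Col-0 (log2 -0.67, SE 0.24, adjusted p = 0.256). SAUR50, the bright gene of this cluster, overlapped between the groups, at 7.75 ± 0.25 in naa20-1 and 7.97 ± 0.20 in Col-0 (adjusted p = 0.587). SAUR2, SAUR3 and SAUR5 had group means of 2.39 to 2.51 and differences of 0.11, -0.09 and -0.02.

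The chromosome 2 pair split. SAUR6 (AT2G21210) was at 6.40, 6.04 and 6.19 in naa20-1 and 6.86, 6.52 and 6.63 in Col-0, without overlap but not called (log2 -0.46, SE 0.13, adjusted p = 0.172). SAUR12 (AT2G21220) was at 4.57, 3.28 and 3.46 in naa20-1 and 3.35, 3.54 and 3.30 in Col-0. Its difference of 0.37 (SE 0.31, adjusted p = 0.655) came from naa20-1 replicate 1, and without that array it was -0.031.

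**Figure D2:**
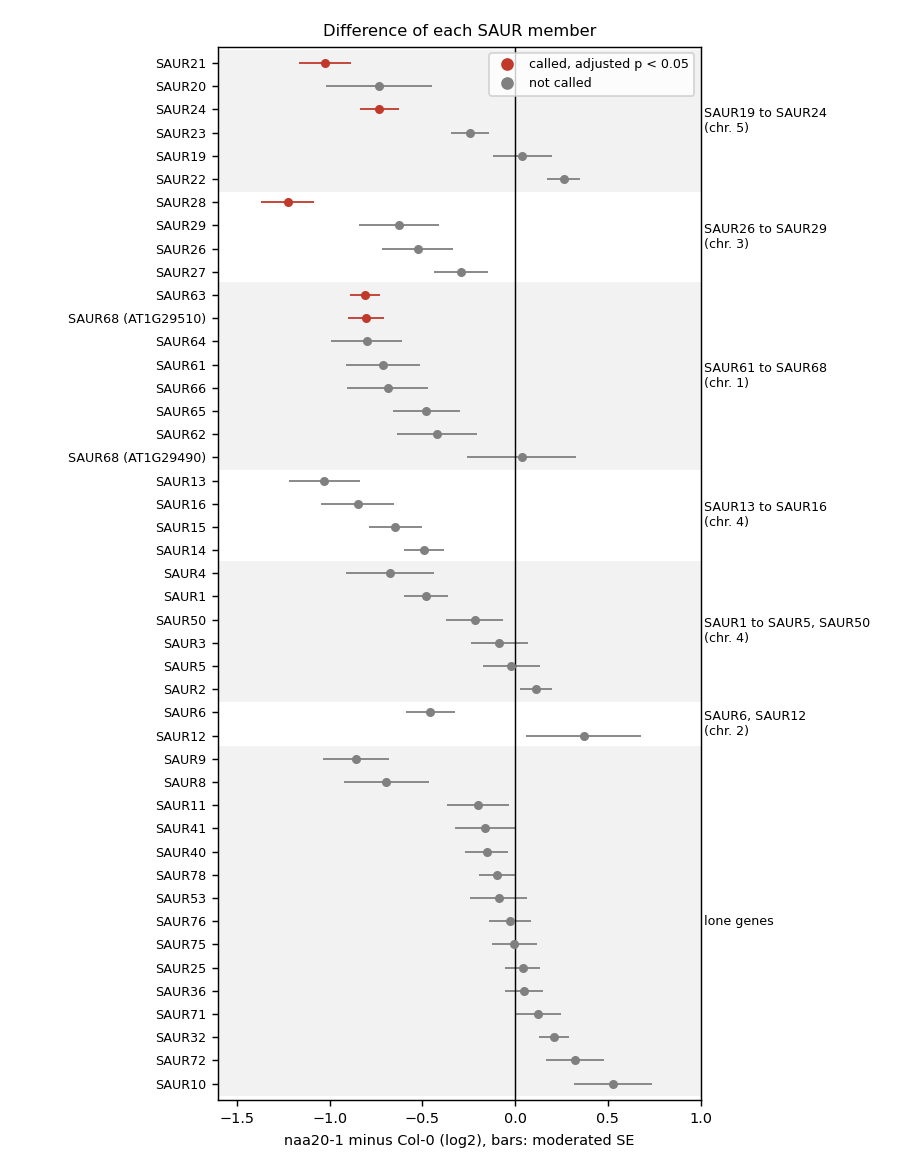
Difference between naa20-1 and Col-0 (log2, horizontal axis) of each SAUR gene, with the moderated standard error as a bar, grouped by tandem cluster with the lone genes at the bottom. The 5 called genes, in red, lie between -1.23 and -0.73, and the differences of the lone genes spread on both sides of 0.

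The 15 lone genes gave no call in either direction, and their median difference was -0.03. SAUR9 (AT4G36110), which like SAUR19 binds clade D phosphatases, was at 3.80, 4.12 and 3.36 in naa20-1 and 4.57, 4.62 and 4.66 in Col-0. SAUR8 (AT2G16580) was at 4.44, 4.49 and 4.29 in naa20-1 and 5.24, 5.51 and 4.55 in Col-0. Neither overlapped between the groups, and neither passed the test (SAUR9 log2 -0.86, SE 0.18, adjusted p = 0.0819, and SAUR8 log2 -0.69, SE 0.23, adjusted p = 0.226). With the variance trend and robust fit of limma, SAUR9 was called (adjusted p = 0.0384).

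SAUR32 (AT2G46690), which acts in the apical hook of dark-grown seedlings, and SAUR10 (AT2G18010) had positive differences. SAUR32 was at 8.98, 9.05 and 9.07 in naa20-1 and 8.86, 8.85 and 8.76 in Col-0, a separation that was small but without overlap (log2 0.21, SE 0.08, adjusted p = 0.310). SAUR10 was at 3.93, 3.69 and 3.22 in naa20-1 and 3.39, 3.03 and 2.82 in Col-0, with overlap (log2 0.53, SE 0.21, adjusted p = 0.313). The other 11 lone genes had differences from -0.20 to 0.32, with unadjusted p-values of 0.0741 or more. SAUR36, a gene of leaf senescence also called SAG201, was at 7.52 ± 0.15 in naa20-1 and 7.48 ± 0.08 in Col-0. SAUR78, of a group linked to ethylene signalling, was at 10.48 ± 0.13 in naa20-1 and 10.57 ± 0.10 in Col-0. SAUR11, SAUR25, SAUR40, SAUR41, SAUR53, SAUR71, SAUR72, SAUR75 and SAUR76 make up the rest.

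Of the 45 genes, 16 had means under the 25th percentile in both groups, 3 in naa20-1 alone and 1 in Col-0 alone. None of the 16 was called, 10 of them had negative differences, and their median was -0.05. A difference between 2 values in this range may be understated.

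Averaged over its genes, a cluster can be followed array by array. The SAUR19 to SAUR24 mean was 4.88, 5.12 and 4.96 in naa20-1 and 5.41, 5.33 and 5.44 in Col-0. That of SAUR26 to SAUR29 was 4.04, 3.79 and 3.74 in naa20-1 and 4.48, 4.55 and 4.55 in Col-0. The chromosome 1 cluster mean was 5.60, 5.42 and 5.13 in naa20-1 and 5.99, 5.88 and 6.03 in Col-0. In these 3 clusters every naa20-1 mean was below every Col-0 mean. The same held for SAUR13 to SAUR16, at 5.31, 5.16 and 4.95 in naa20-1 and 5.96, 5.85 and 5.86 in Col-0. The clusters of SAUR50 with SAUR1 to SAUR5 (3.77, 3.68 and 3.50 in naa20-1, 3.72, 3.97 and 3.95 in Col-0) and of SAUR6 and SAUR12 overlapped between the groups, as did the lone genes (4.83, 4.84 and 4.70 in naa20-1, 4.83, 4.91 and 4.83 in Col-0).

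The naa20-1 arrays differed among themselves. Replicate 3 held the lowest of the 3 naa20-1 values in 25 of the 45 genes, replicate 2 in 12 and replicate 1 in 8. The mean over the 45 genes was below that of Col-0 by differences of -0.23, -0.31 and -0.47 in replicates 1, 2 and 3. In 27 genes all 3 naa20-1 arrays were below the Col-0 mean, and in 6 all 3 were above it. How often each of these orders occurs over all tested genes was not counted, so these counts describe the members only. Without replicate 3 the median difference of the members was -0.26, with 32 of 45 negative.

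**Figure D3:**
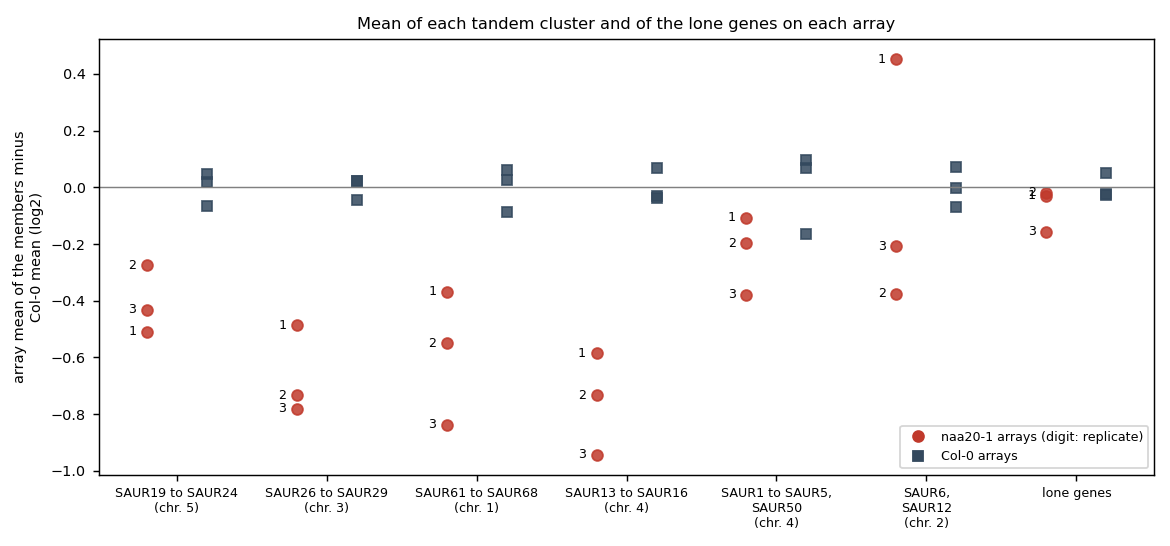
Mean of each tandem cluster and of the lone genes on each array, as the difference from the Col-0 mean (log2, vertical axis), with naa20-1 arrays as red circles marked by replicate and Col-0 arrays as dark squares. In 4 clusters the 3 naa20-1 points lie below all Col-0 points, by -0.28 (SAUR19 to SAUR24) to -0.94 (SAUR13 to SAUR16) from the Col-0 mean.

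Genes next to the SAUR clusters were read as a local comparison. The 32 that are not SAUR genes and lie inside the clusters or are the nearest 2 on either side had a median difference of -0.02. None of the 32 was called. In limma, 5 had an unadjusted p under 0.05 (14.2% of all tested genes), 3 with a negative and 2 with a positive difference. Of the 10 that lie inside the clusters, AT5G18040, which sits among SAUR19 to SAUR24, was at 5.96 ± 0.05 in naa20-1 and 5.67 ± 0.15 in Col-0 (adjusted p = 0.262). CRK26 (AT4G38830), a cysteine-rich receptor-like kinase gene between SAUR13 and SAUR14, was at 3.67 ± 0.13 in naa20-1 and 4.10 ± 0.24 in Col-0 (log2 -0.43, SE 0.14, adjusted p = 0.212). Beside the same cluster, AT4G38820 had the lowest difference of the 32, at 3.86 ± 0.09 in naa20-1 and 4.31 ± 0.14 in Col-0 (log2 -0.45, SE 0.10, adjusted p = 0.106). In CRK26 and AT4G38820 all naa20-1 arrays were below all Col-0 arrays. These 3 genes were picked after their values were seen.

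None of the 33 further SAUR genes was called. In limma, 6 had an unadjusted p under 0.05 (14.2% of all tested genes), 4 with a negative and 2 with a positive difference. The median difference of the 33 was 0.02, with 15 negative. In 16 of the 33 both group means were under the 25th percentile of the table. SAUR51 (AT1G75580) was at 3.66, 3.47 and 3.39 in naa20-1 and 4.15, 3.88 and 4.04 in Col-0 (log2 -0.52, SE 0.11, adjusted p = 0.0909). SAUR37 (AT4G31320) was at 7.55, 7.51 and 7.87 in naa20-1 and 8.05, 8.47 and 8.18 in Col-0 (log2 -0.59, SE 0.14, adjusted p = 0.127). Neither gene overlapped between the groups. Of these 33, SAUR73 lies inside the chromosome 3 cluster, and SAUR49 and SAUR7 lie beside the second chromosome 4 cluster and the chromosome 2 pair, with differences of 0.10, -0.28 and -0.38. SAUR54 and SAUR70 lie beside the lone genes SAUR53 and SAUR76, with differences of -0.24 and -0.06. The difference between the 45 and the 33 was not tested.

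Upstream of the SAUR genes, auxin receptors and auxin response factors did not pass the test. TIR1 and the AFB proteins bind auxin and release the ARF transcription factors that act on auxin-responsive promoters. Among the 6 receptor genes 0 were called and 0 had an unadjusted p under 0.05 in limma. TIR1 was at 10.47 ± 0.10 in naa20-1 and 10.55 ± 0.09 in Col-0, and AFB1 at 7.41 ± 0.26 in naa20-1 and 7.56 ± 0.08 in Col-0. Among the 15 ARF genes 0 were called and 3 had an unadjusted p under 0.05 (14.2% of all tested genes). The median difference of the 15 was 0.01. ARF2, a repressor, was at 11.14 ± 0.06 in naa20-1 and 11.38 ± 0.04 in Col-0 (adjusted p = 0.259), and ARF19, an activator, was at 8.86 ± 0.13 in naa20-1 and 8.62 ± 0.04 in Col-0 (adjusted p = 0.307).

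Of 17 transcription regulators of growth in light and brassinosteroid responses, 1 rose, 0 fell and 16 did not pass the test, with a median difference of 0.06. In limma, 6 had an unadjusted p under 0.05 (14.2% of all tested genes), 4 with a positive and 2 with a negative difference. The gene that rose was PIF1 (AT2G20180), a phytochrome-interacting factor that represses seed germination and greening in the dark. It stood at 9.13, 9.03 and 9.39 in naa20-1 and at 8.32, 8.43 and 8.47 in Col-0, 1.71-fold higher (log2 0.77, SE 0.11, adjusted p = 0.0289). The PIF1 call remained without naa20-1 replicate 3 and was lost without any other single array (adjusted p from 0.0540 to 0.109). PIF4 (AT2G43010), which promotes hypocotyl elongation in warmth and shade, was at 9.47, 9.56 and 9.47 in naa20-1 and 9.01, 9.04 and 9.09 in Col-0. It was just short of the threshold (log2 0.45, SE 0.08, adjusted p = 0.0535), without overlap between the groups. HFR1 (log2 0.40, adjusted p = 0.207) and BEE2 (log2 0.22, adjusted p = 0.328) also had positive differences. PRE1 (log2 -0.62, SE 0.15, adjusted p = 0.112) and PRE6 (log2 -0.32, SE 0.12, adjusted p = 0.303) had negative differences. These genes did not overlap between the groups either.

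Downstream, none of the 9 clade D phosphatase genes or the 11 plasma membrane H+-ATPase genes was called. Under an unadjusted p of 0.05 in limma were 2 phosphatase genes and 1 H+-ATPase gene, each with a negative difference (7.19% of all tested genes). The phosphatase gene AT4G33920 was at 8.62 ± 0.09 in naa20-1 and 8.96 ± 0.03 in Col-0 (log2 -0.34, adjusted p = 0.133), and AT5G02760 at 7.80 ± 0.14 in naa20-1 and 8.14 ± 0.18 in Col-0 (adjusted p = 0.270). AHA7 (AT3G60330), an H+-ATPase known from root hairs, was at 6.58, 6.45 and 6.95 in naa20-1 and 7.28, 7.52 and 7.67 in Col-0 (log2 -0.83, SE 0.16, adjusted p = 0.0635), and it was called without naa20-1 replicate 3 (adjusted p = 0.0448). AHA11 was at 9.44 ± 0.02 in naa20-1 and 9.64 ± 0.12 in Col-0 (adjusted p = 0.395). AHA1, a main pump of most tissues, was at 12.02 ± 0.07 in naa20-1 and 12.05 ± 0.09 in Col-0.

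**Figure D4:**
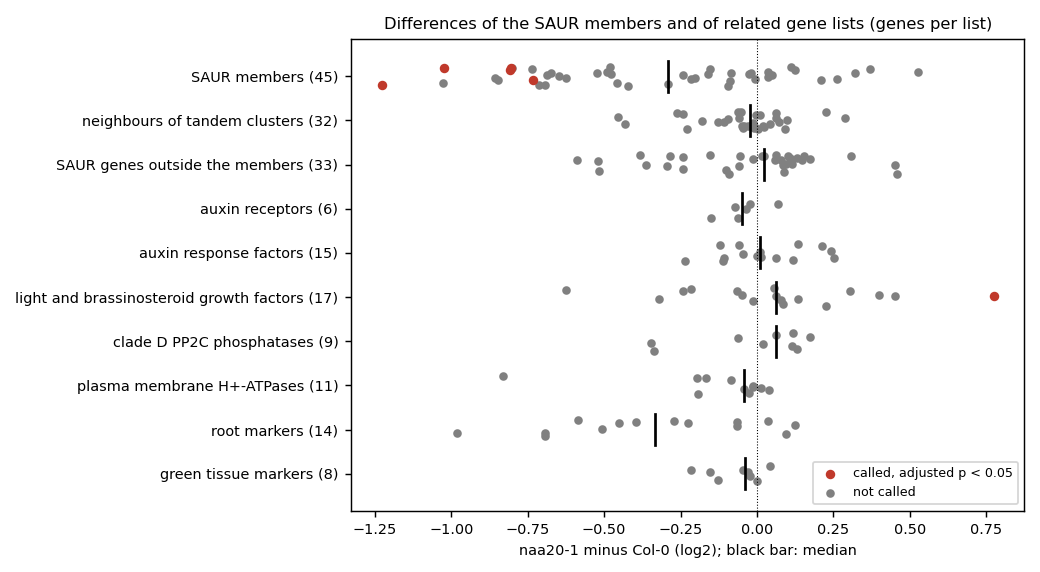
Differences between naa20-1 and Col-0 (log2, horizontal axis) of the 45 SAUR genes and of the comparison lists, 1 point per gene, with the median as a black bar and called genes in red. The medians of the SAUR genes (-0.29) and of the root markers (-0.33) lie below 0, and those of the other lists lie between -0.05 and 0.06.

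Among markers of root tissue, 0 of 14 were called, 11 had a negative and 3 a positive difference, and the median difference was -0.33. An unadjusted p under 0.05 in limma was found for 8, all with a negative difference (7.19% of all tested genes). These 8 were the Casparian strip genes CASP1 to CASP5, the tonoplast aquaporin gene TIP2;3, the auxin efflux carrier gene PIN2 and the cell wall protein gene PRP3. TIP2;3 was at 9.65, 9.33 and 9.75 in naa20-1 and 10.29, 10.21 and 10.32 in Col-0 (log2 -0.69, SE 0.12, adjusted p = 0.050002, just over the threshold). CASP4 was at 5.49 ± 0.16 in naa20-1 and 6.07 ± 0.20 in Col-0 (adjusted p = 0.102). The root hair genes COBL9, EXPA7, PRP1 and EXPA18 overlapped between the groups, with differences of 0.04, -0.07, -0.07 and -0.27. PRP3, also a root hair gene, had a difference of -0.45 without overlap. MYB36 (0.13) and NRT2.1 (0.10) also overlapped, and in both genes the group means lay under the 25th percentile. The summed level of the 14 on the linear scale was 3458 to 3811 in naa20-1 and 4728 to 5054 in Col-0, and CASP1 and TIP2;3 made up 68.8% to 71.9% of it on each array. The part of root tissue in the SAUR differences was not tested, and in whole seedlings fewer cells of a type and less RNA per cell cannot be told apart.

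Of 8 markers of green tissue 0 were called, 6 had a negative and 2 a positive difference, and the median difference was -0.04. An unadjusted p under 0.05 in limma was found for 1 (14.2% of all tested genes). This was LHCB1.3, at 11.50 ± 0.03 in naa20-1 and 11.72 ± 0.02 in Col-0 (adjusted p = 0.268). LHCB2.1, like LHCB1.3 a gene of the light-harvesting antenna, was at 7.98 ± 0.15 in naa20-1 and 8.13 ± 0.11 in Col-0 (adjusted p = 0.589). RBCS1A, of the small subunit of Rubisco, stood at 14.18 on all 6 arrays, near the highest value of the table (14.58). Such values may be saturated, so they do not show whether green tissue differed between the groups. The summed level of the 8 on the linear scale was 47394.0 to 48511.7 in naa20-1 and 47542.5 to 49092.3 in Col-0. RBCS1A, PSBO1 and RCA made up 88.3% to 89.8% of it on each array.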

How the data were processed

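The authors deposited 1 table of log2 expression values, 1 per probe set and array. The submitters' processing notes name RMA, which corrects background, normalizes arrays by quantiles and summarises probes, and differences of dim or near-identical genes can be understated or shared between copies. Which array and which probe set definition were used is not given in the sources at hand, nor are detection calls. The number of arrays limits the precision.

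Each column was assigned by its title. Probe sets were named through locus tags in the RefSeq gene table of TAIR10.1 (27241 of 27827 matched), used for names and neighbours only. The log2 values were fitted without further normalization or filter with limma 3.58.1 in R 4.3.3 (lmFit, eBayes) on the 2 groups of 3, with Benjamini-Hochberg adjustment and a threshold of 0.05. Scripts were tested on simulated data.

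The 45 members and the gene lists were chosen with earlier results of these data known. The text names every called member, the 2 smallest p-values in each cluster, the 4 smallest among lone genes, NAA20, and in each list up to 4 called genes, or the 2 with the smallest p-values where fewer than 2 were called. Other genes were named after their values were seen. Alternatives were repeated quantile normalization, centring on the median, leaving out the dimmest 40% of genes, eBayes with trend and robust, all probe sets, a replicate block, and leaving out each array. By the titles' numbers, deviations from the group mean correlated at 0.02, 0.06 and 0.01 for same-numbered arrays, and at -0.05 to 0.02 for different-numbered ones. Such small values, from 3 arrays a group, cannot show whether the arrays were paired. The numbers were not taken as pairs, and the replicate block is given as an alternative. The descriptions number the naa20-1 arrays differently from the titles, and by their numbers naa20-1 replicate 2 would share its number with Col-0 replicate 3 (correlation -0.011). No sequence is printed, since none was used here.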

Additional observations from a re-analysis of the deposited data

How the results depend on the processing

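Repeating quantile normalization, centring the arrays or keeping all probe sets left 5 SAUR genes lower and 0 higher. Centring moved TIP2;3 just under the threshold, so 1 root marker was lower. Leaving out the dimmest 40% of genes kept 16 members, with a median difference of -0.66, and 3 of SAUR19 to SAUR24, with a median of -0.73. The difference of each gene kept was unchanged, so these medians moved because dim members dropped out. With these genes left out, 5 members were lower, with SAUR14 called and SAUR28 not tested. Higher were 2 growth regulators, and 1 H+-ATPase gene and 1 root marker were lower. With the variance trend and robust fit, 311 genes of the table were higher and 486 lower, against 104 and 209. In that fit 11 members, 1 growth regulator, 1 clade D phosphatase gene, 1 H+-ATPase gene, 2 root markers, 1 green marker and 1 of the further SAUR genes (SAUR37) were lower, and 2 growth regulators were higher. With the titles' replicate number as a block, which the descriptions' numbers for naa20-1 do not match, 61 genes were higher and 129 lower, 0 growth regulators were higher, and 4 members were lower, SAUR13, SAUR21, SAUR63 and AT1G29510, while SAUR24 (adjusted p = 0.0532 in limma), SAUR28 (0.0529), NAA20 and PIF1 (both 0.0542) were not called. The cause of the changes in calls was not tested.

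Leaving out each array in turn gave 11 to 63 genes higher and 51 to 134 lower, 1 to 4 members lower, 0 to 1 growth regulators higher and 0 to 1 H+-ATPase genes lower, with fewer samples in each fit. The difference of SAUR12 reversed to -0.031 without naa20-1 replicate 1 and reached 0.61 without naa20-1 replicate 2. The differences of the 5 called members stayed below 0 in every alternative that tested them. Dim values limit 16 members, which had means under the 25th percentile in both groups. With 3 arrays a group, a gene that missed the threshold is not shown to be equal between naa20-1 and Col-0.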
